A study of Homo sapiens with 33 samples.

Results

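The mitochondrial genome carries its own short set of genes, and their RNA was measured here in wild type K562, an erythroleukemia cell line. The members were the entries of the input RNA expression table whose symbol begins with MT- and whose position is on the mitochondrial chromosome, chrM. This gave 37 genes of the 58293 entries in the table, and these were all of its entries on chrM. They comprised 2 rRNA genes, 22 tRNA genes and 13 mRNA genes. The study asked how nuclear RNA bound by EZH2, the catalytic subunit of the histone methyltransferase complex PRC2, affects the regulation of the embryonic ε-globin gene, and its wild type K562 cells were unedited. The input RNA of the EZH2 RNA immunoprecipitation experiment (RIP-seq) was sequenced as 1 library. In the RIP protocol, fixed cells were lysed and their nuclei sonicated, rRNA was removed from the immunoprecipitated RNA with a kit, and stranded libraries of 250 to 500 bp were made. The methods of the study describe rRNA removal for the immunoprecipitated and the fractionated RNA, and do not describe the input separately. They do not give the strand setting with which genes were counted. The other RNA libraries, of cytoplasmic RNA, nuclear RNA and the nuclear polyA+ and polyA- fractions, also came from wild type K562 and 1 library each, and were used only for fragments on chrM.

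Human mitochondrial DNA is a small circle transcribed in both directions into long precursor RNAs. Transcription of the heavy strand yields both rRNAs, most tRNAs and all but one of the mRNAs, and transcription of the light strand yields MT-ND6 and the remaining tRNAs. The tRNAs sit between the other genes like punctuation, and their excision by the RNase P complex (TRMT10C, HSD17B10, PRORP) and by ELAC2 releases the rRNAs and mRNAs. The mRNAs encode subunits of the respiratory chain and ATP synthase, whose other subunits come from the nucleus. In most cells the 12S and 16S rRNAs of the mitochondrial ribosome far outnumber the mRNAs.

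By the GENCODE 44 annotation of GRCh38, whose coordinates matched the table for 37 of 37 genes, 28 genes were transcribed from the heavy strand and 9 from the light strand. The heavy-strand genes were both rRNA genes, 14 tRNA genes and 12 mRNA genes. The light-strand genes were 8 tRNA genes and MT-ND6. The identity of the sample matched its label as far as markers can show it. The K562 markers HBG1, HBG2, HBZ, GATA1, TAL1, KLF1 and TFRC were listed at 12.0 to 218 FPKM, the number of fragments scaled to gene length and to the size of the library. None of 5 markers of other blood lineages and none of 3 markers of other tissues reached 1 FPKM, with the highest, COL1A1, at 0.677 FPKM.

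The sequences below are those of 5 tRNA genes. Each is in the sense of its gene, from the hg38 reference, and the capitals mark the anticodon. The first 4 are the tRNA genes with a value above 0, and MT-TE is a light-strand tRNA gene listed at 0. All are shorter than the library fragments.
MT-TF (tRNA-Phe, chrM:577-647, + strand): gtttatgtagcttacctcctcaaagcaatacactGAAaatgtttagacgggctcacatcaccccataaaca
MT-TV (tRNA-Val, chrM:1602-1670, + strand): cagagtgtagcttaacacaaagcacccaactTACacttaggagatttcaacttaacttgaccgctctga
MT-TL1 (tRNA-Leu, chrM:3230-3304, + strand): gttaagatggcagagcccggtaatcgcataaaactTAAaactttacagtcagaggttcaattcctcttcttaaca
MT-TH (tRNA-His, chrM:12138-12206, + strand): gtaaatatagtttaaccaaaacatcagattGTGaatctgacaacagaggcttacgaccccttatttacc
MT-TE (tRNA-Glu, chrM:14674-14742, - strand): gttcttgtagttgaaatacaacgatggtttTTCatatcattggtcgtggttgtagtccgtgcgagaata

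Of the mRNA genes, 13 of 13 were listed above 0 and their levels ran from 239 to 718 FPKM, with a median of 464 FPKM. Both rRNA genes were listed lower than every mRNA gene. Of the tRNA genes, 4 of 22 were above 0. Over all members, 19 of 37 were above 0, beside 58.2% of all entries of the table, and the same 19 had an FPKM of at least 1, beside 21.8% of all entries. A lower bound above 0 was listed for 17 of 37 members, beside 26.5% of all entries. With 1 library there is no replicate error, so the deposited lower and upper bounds of each FPKM are given as its error. They cover counting and assignment of reads in this library and not the spread between cultures.

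Both rRNAs form the core of the mitochondrial ribosome. MT-RNR2 (16S rRNA, chrM:1671-3229) was listed at 199 FPKM with bounds of 193 to 205, and MT-RNR1 (12S rRNA, chrM:648-1601) at 93.5 FPKM with bounds of 88.3 to 98.7. The bounds of these genes did not overlap. MT-RNR2 was 2.13 times MT-RNR1, and the quotients of opposite bounds were 1.96 and 2.32. The next gene along the heavy strand after MT-RNR2, apart from MT-TL1, is MT-ND1, which was 1.20 times MT-RNR2 (1.13 to 1.28 from the bounds) and 2.56 times MT-RNR1. Both rRNAs are targets of rRNA removal, which the methods describe for the immunoprecipitated and fractionated RNA but not separately for the input. The part of any such removal in these levels was not tested, since no libraries with and without it were compared here.

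Complex I, NADH dehydrogenase, takes 7 of the mRNA-encoded subunits, and their genes spanned the whole range of levels, with a median of 398 FPKM. MT-ND4 was the highest of the 37 members at 718 FPKM (bounds 686 to 750), the 8th entry of the table in order of FPKM. MT-ND5 followed among the ND genes at 612 FPKM (602 to 621) and MT-ND3 at 529 FPKM (505 to 554). These 3 genes lie in the later part of the heavy-strand order and their bounds did not overlap one another. MT-ND4L was listed at 398 FPKM (368 to 428), MT-ND6 at 300.0 FPKM (286 to 314), MT-ND2 at 290.0 FPKM (281 to 299) and MT-ND1 at 239 FPKM (231 to 248). MT-ND1 was the lowest mRNA gene, and MT-ND4 was 3.00 times as high (2.77 to 3.25). The bounds of MT-ND6 and MT-ND2 overlapped, so these genes did not differ beyond them.

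Complex III takes 1 mitochondrial subunit, cytochrome b. Its gene, MT-CYB, was listed at 304 FPKM (296 to 313), and its bounds overlapped those of MT-ND6. Complex IV, cytochrome c oxidase, takes its 3 catalytic core subunits from MT-CO1 at 494 FPKM (484 to 503), MT-CO2 at 410 FPKM (bounds 396.5 to 423) and MT-CO3 at 607 FPKM (578 to 637). The bounds of these 3 genes did not overlap, and MT-CO3 was 1.48 times MT-CO2 (1.37 to 1.61). ATP synthase takes 2 membrane subunits, from MT-ATP8 at 620 FPKM (568 to 672) and MT-ATP6 at 464 FPKM (440 to 488). In the order of all 15 rRNA and mRNA genes, the neighbours whose bounds overlapped were MT-ATP8 with MT-ND5, MT-ND5 with MT-CO3, MT-CO1 with MT-ATP6, MT-CO2 with MT-ND4L, MT-CYB with MT-ND6, and MT-ND6 with MT-ND2.

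**Figure D1:**
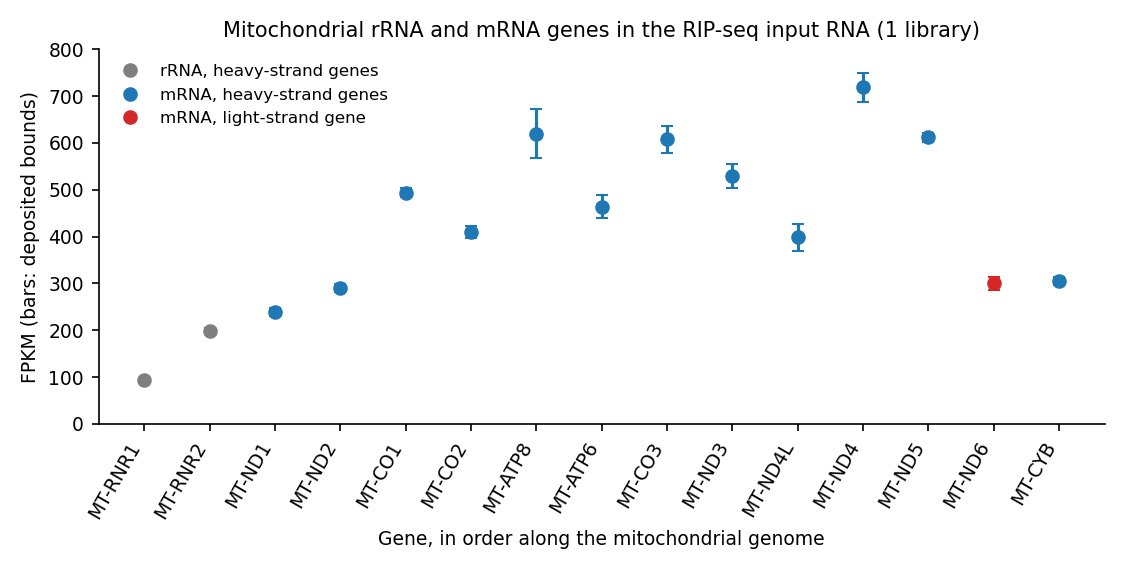
FPKM of the 15 mitochondrial rRNA and mRNA genes in order along the genome, with the deposited lower and upper bounds as bars, for the 1 input RNA library. Both rRNA genes (grey) sit below all 13 mRNA genes, MT-ND4 is highest at 718 FPKM, and MT-ND6 (red), the light-strand mRNA gene, lies beside MT-CYB and about level with it.

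Along the heavy strand the level was not the same from gene to gene. Over the 12 heavy-strand mRNA genes, Spearman's rank correlation between place and FPKM was 0.41, and over 14 genes with the rRNA genes it was 0.63, as a description of points that share 1 library. The levels did not follow the order throughout: MT-CYB, the last gene, was at 304 FPKM after MT-ND5 at 612 FPKM, which was 2.01 times as high (1.92 to 2.10). The correlation changed sign, to -0.37, over the 6 of 12 genes that share no 100-base run with nuclear DNA, described further on. The genes left out, MT-ND1, MT-ND2, MT-CO1, MT-CO2, MT-ATP6 and MT-CO3, lie mostly early in the order, so this value covers mainly later genes. Without MT-ATP8, MT-ATP6, MT-ND4L and MT-ND4, which overlap a neighbour, the correlation with place was 0.595. The rank correlation of FPKM with gene length was 0.04 and with GC content -0.29, over all 12 genes.

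A pair of mRNAs each carry overlapping reading frames, in which the end of one gene is the beginning of the next. The shared bases are in capitals, with the bases on either side in lower case.
MT-ATP8 and MT-ATP6 (chrM:8507-8592, + strand): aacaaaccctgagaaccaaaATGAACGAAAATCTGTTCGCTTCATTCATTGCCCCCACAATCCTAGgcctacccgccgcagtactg
MT-ND4L and MT-ND4 (chrM:10740-10786, + strand): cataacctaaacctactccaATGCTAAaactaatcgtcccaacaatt
The first pair shares 46 bases and the second pair 7 bases, and in each run the capitals open with the ATG start codon of the second gene. MT-ATP8 was 1.34 times MT-ATP6 (1.16 to 1.53), and MT-ND4 was 1.80 times MT-ND4L (1.61 to 2.04). So in the first pair the shorter and upstream gene had the higher FPKM, and in the second pair the longer and downstream gene had it. Both genes of a pair are read from the same mature mRNA in textbook accounts.

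The widths of the bounds give the number of fragments behind each value. Where the lower bound was above 0, the bounds were symmetric around the FPKM. If the distance from the FPKM to the upper bound is taken as 2 Poisson standard deviations, MT-RNR1 rested on about 1273 fragments, MT-ND6 on about 1944 and MT-ND5 on about 16640. Across the 10 rRNA and mRNA genes with no overlapping neighbour, the implied fragments per FPKM lay on a line in gene length, with a largest deviation of 5.13%. Its slope corresponded to a library of about 16200000 fragments, and it met the length axis at 120 bases. The 5 genes that share bases with a neighbour lay under this line, at 64.7% of it for MT-ATP8, 63.0% for MT-ND4L, 35.5% for MT-ATP6, 26.3% for MT-CO3 and 13.8% for MT-ND4. MT-CO3 shares 1 base with MT-ATP6. The bounds of these 5 genes were thus wider than their level and length alone would give, and the highest member, MT-ND4, had bounds wider in proportion (4.44% of its FPKM) than MT-ND5 (1.55%).

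**Figure D2:**
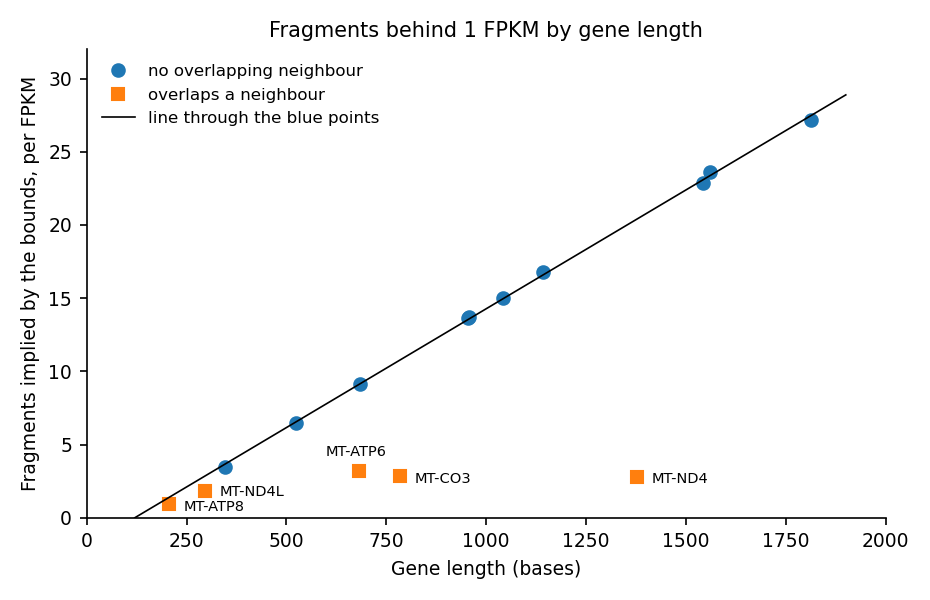
Fragments implied by the deposited bounds, per FPKM, against gene length in bases for the 15 rRNA and mRNA genes, with the line through the 10 genes that have no overlapping neighbour. These 10 points lie within 5.13% of the line, while the 5 genes that overlap a neighbour (squares) lie under it, with MT-ND4 at 13.8% of the line.

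From this line, and from the bounds for the tRNA genes, the 37 genes together took about 81865 fragments, or 0.504% of the library. Both rRNA genes took about 5918 of them, 7.23% of the fragments of all members. Genes that share bases with a neighbour were also counted by the line and not by their bounds. For MT-ND4 the line gave about 14664 fragments and the bounds about 2027. The shares are of input RNA from a protocol that sonicates nuclei, and the share in whole cells was not measured. On the FPKM scale the members took 3.57% of the sum over all entries. The mRNA genes gave 2.89%, the tRNA genes 0.540% and the rRNA genes 0.141% of that sum. FPKM divides by a length and a fragment count does not, so these shares are different quantities. By the line, that length was near the gene length less 120 bases, so a short gene takes a high FPKM per fragment. The tRNA share of the summed FPKM rested on about 16.6 fragments.

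The tRNA genes span 59 to 75 bp. MT-TF, which opens the heavy-strand gene order, was listed at 689 FPKM with bounds of 244 to 1135, and MT-TL1 at 272 FPKM with bounds of 28.7 to 515. MT-TV and MT-TH were each listed at 78.0 FPKM with bounds of 0 to 234. The other 18 tRNA genes were listed at 0. For comparison, of the 2939 entries of the table with a span under 100 bp, 2.65% were above 0. In terms of implied fragments these levels were small: 9.59 for MT-TF, 5 for MT-TL1 and exactly 1 each for MT-TV and MT-TH. A fragment was worth 78.0 FPKM in MT-TV and 0.0734 FPKM in MT-RNR1. MT-TF therefore stood 10th in the table by FPKM on about 9.59 fragments, and its bounds overlapped those of every mRNA gene.

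Among the 4 tRNA genes at 0 with the 69-bp span of MT-TV (MT-TI, MT-TA, MT-TS1 and MT-TE), a count of 0 allows up to 3 fragments, which is 234 FPKM. That limit, which covers counting error only, lay above the FPKM of both rRNA genes. It was below the FPKM of every mRNA gene, the lowest being MT-ND1 at 239 FPKM, but above the lower bound of MT-ND1, 231 FPKM. These tRNA genes are thus not shown to lie below every mRNA gene. MT-TA, MT-TS1 and MT-TE match nuclear DNA exactly over their whole length, as do MT-TQ, MT-TW, MT-TN and MT-TK, also listed at 0. MT-TI, the other genes at 0 and the 4 genes above 0 match it in part or not at all. The part of mapping in these zeros was not tested. MT-TF, MT-TV and MT-TL1 are the 3 tRNA genes that border an rRNA gene, and all 3 were above 0. Of the other 19 tRNA genes 1 was above 0, MT-TH, which lies after MT-ND4. MT-TV, like MT-TH, rested on 1 fragment and had a lower bound of 0. All 4 were heavy-strand genes, as 4 of 14 heavy-strand and 0 of 8 light-strand tRNA genes were above 0. Counts of 1 to 9.59 fragments do not show a difference between strands, or between genes that border an rRNA gene and the others. A mature tRNA is shorter than the size-selected fragments, so whether these few fragments came from tRNAs or from precursors cannot be told apart.

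**Figure D3:**
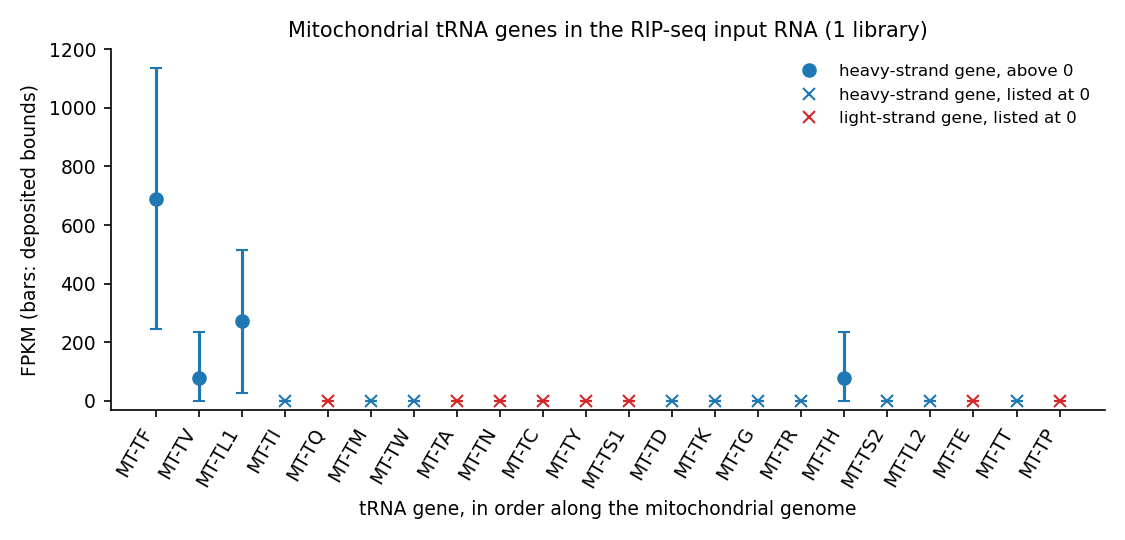
FPKM of the 22 mitochondrial tRNA genes in order along the genome, with deposited bounds as bars; circles are above 0 and crosses are listed at 0. MT-TF, MT-TV, MT-TL1 and MT-TH are the 4 genes above 0, and the upper bound of MT-TF reaches 1135 FPKM.

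MT-ND6 is the mRNA gene of the light strand. At 300.0 FPKM it was 0.626 of the median heavy-strand mRNA gene (479 FPKM), or -0.67 on the log2 scale. Of the 12 heavy-strand mRNA genes, 2 were below it and 9 had a lower bound above its upper bound. It lies between MT-ND5 and MT-CYB, facing them on the other strand. MT-ND5 was 2.04 times MT-ND6 (1.92 to 2.17), whereas MT-ND6 and MT-CYB had a ratio of 0.985 (0.915 to 1.06) and did not differ beyond their bounds. Because the strand setting of the counting is not given, fragments of MT-ND6 and of the heavy-strand precursor that runs across its locus cannot be told apart in its value.

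The strands differ in base content, and the first 90 bases of MT-ND6 and of its neighbour MT-ND5 show this, with each G in capitals.
MT-ND6 (chrM:14584-14673, - strand): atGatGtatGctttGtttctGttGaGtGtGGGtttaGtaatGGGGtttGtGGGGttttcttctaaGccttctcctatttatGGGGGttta
MT-ND5 (chrM:12337-12426, + strand): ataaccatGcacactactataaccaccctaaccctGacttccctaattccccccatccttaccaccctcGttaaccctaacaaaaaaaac
These windows hold 27 and 3 G. Over the whole gene, MT-ND6 was 35.6% G and 7.05% C, while the 12 heavy-strand mRNA genes were 6.28 to 16.2% G and 29.5 to 36.0% C. The rRNA genes were 17.3 and 19.0% G. The 8 light-strand tRNA genes were 23.5 to 36.1% G and the 14 heavy-strand tRNA genes 10.3 to 19.1% G, so the strands did not overlap in G in either class. GC content, the sum of both bases, hid this contrast: 42.7% in MT-ND6 lay inside the range of the heavy-strand mRNA genes, 39.6 to 47.7%.

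**Figure D4:**
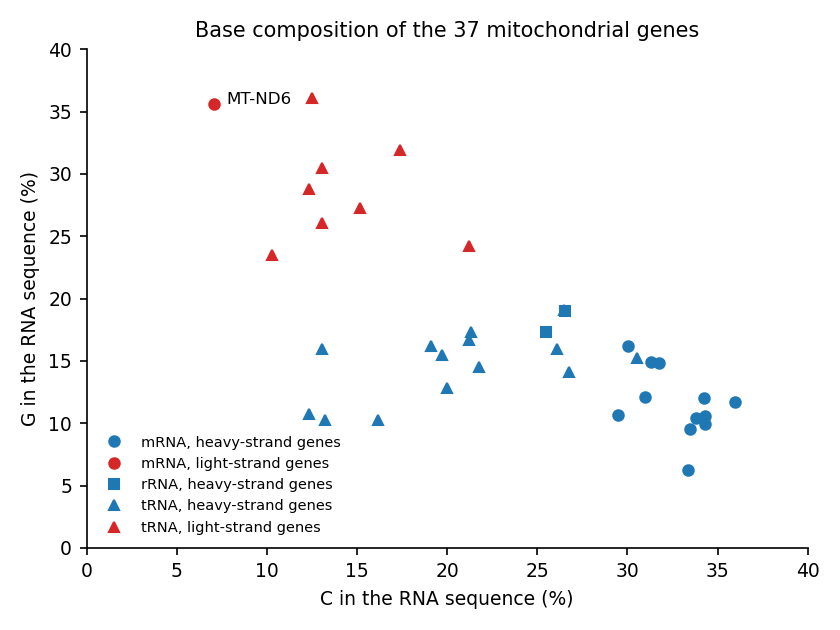
Share of G against share of C in the RNA sequence of each of the 37 mitochondrial genes, in percent, from the hg38 reference; colour gives the strand and the symbol the class. MT-ND6 lies at 35.6% G and 7.05% C, apart from the 12 heavy-strand mRNA genes at 6.28 to 16.2% G.

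The 3' ends of the mRNA genes show the same compact layout. In 6 of 13 mRNA genes the annotated span is not a multiple of 3. Of these, 5 end in T and 1, MT-ND1, ends in TA, and in textbook accounts the polyA tail added to such an RNA completes the stop codon. The 6 genes were MT-ND1, MT-ND2, MT-CO3, MT-ND3, MT-ND4 and MT-CYB, whose levels covered the whole range of the mRNA genes from 239 to 718 FPKM.

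Nuclear DNA holds old copies of mitochondrial DNA, and reads that map equally well to both places lose mapping quality. The authors kept alignments with a mapping quality of at least 20. To see how much of each member is exposed to this, every run of 100 bases (a word) on chrM was looked up on both strands of 24 nuclear chromosomes. Of 16470 words, 1535 (9.32%) also occurred there, and the longest exact match was 279 bases. Of the 15 rRNA and mRNA genes, 7 held such words: MT-CO1 27.9%, MT-ND2 26.1%, MT-RNR1 21.2%, MT-ATP6 11.9%, MT-ND1 11.0%, MT-CO3 4.67% and MT-CO2 2.39% of their words. The other 8, among them MT-RNR2, MT-ND4, MT-ND5, MT-ND6 and MT-CYB, held none.

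The 6 heavy-strand mRNA genes with such words had a median of 437 FPKM (239 to 607) and the 6 without had a median of 571 FPKM (304 to 718). These ranges overlapped. The rank correlation between the share of such words and FPKM was -0.43 over the 12 genes. When each FPKM was divided by the share of words found only on chrM, MT-CO1 moved from 494 to 684, MT-ND2 from 290.0 to 392 and MT-RNR1 from 93.5 to 119. On that scale MT-RNR1 and MT-RNR2 still held the lowest values of the 15 genes, and MT-RNR1 stood at -0.75 against MT-RNR2 on the log2 scale, compared with -1.09 without the division. This division was chosen after seeing the data and treats every shared word of 100 bases as lost. Shorter words are shared more often, with 43.6% of the 50-base words of MT-RNR1 and 15.7% of those of MT-RNR2 found on nuclear chromosomes. Longer words are shared less often. With words of 150 bases the shares were 15.7% in MT-ND2, 14.5% in MT-CO1, 10.4% in MT-RNR1 and 1.12% in MT-ND1. They were 0% in MT-ATP6, MT-CO3 and MT-CO2. The grouping into 6 genes with and 6 without shared words therefore holds for words of 100 bases only. The division is neither a correction nor a limit on the loss from shared words. The part of mapping in the levels was not tested further.

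**Figure D5:**
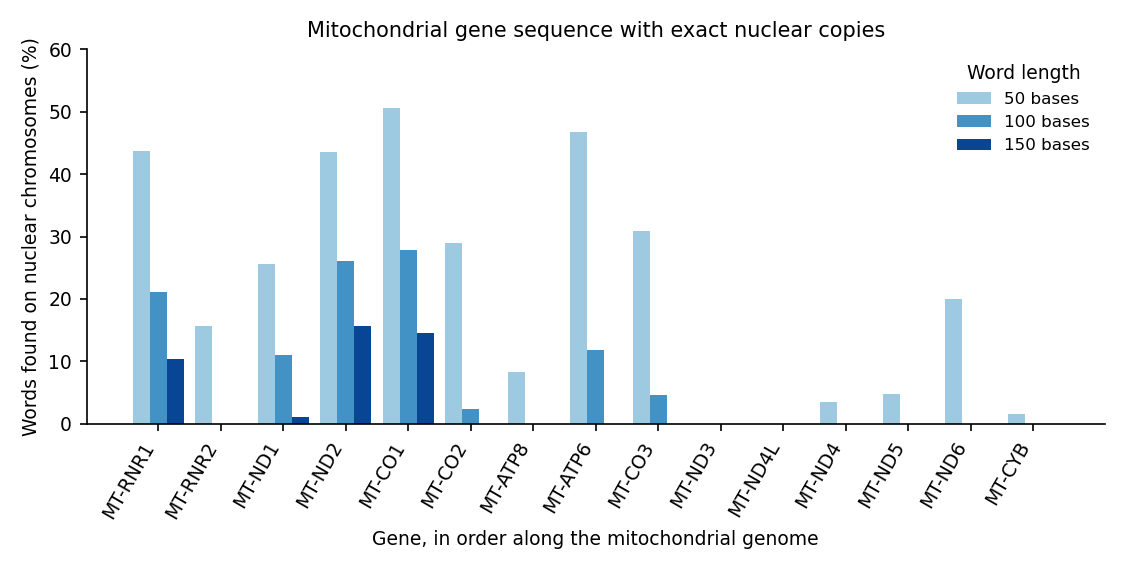
Percent of the words of 50, 100 and 150 bases in each of the 15 rRNA and mRNA genes that also occur exactly on nuclear chromosomes of hg38. MT-CO1, MT-ND2 and MT-RNR1 hold the largest shares of 100-base words, at 27.9, 26.1 and 21.2%, while MT-ND3 and MT-ND4L hold none at any of the 3 lengths.

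The table also lists 405 nuclear entries whose symbols name them as copies of members. They were picked by symbol, MTRNR2L included, and not by gene type, so not all need be pseudogenes. Of these 405, 243 were above 0, 48 had a lower bound above 0 and 20 reached 1 FPKM, with a median of 0.0941 FPKM. Over all entries of the table the shares were 58.2% above 0, 26.5% with a lower bound above 0 and 21.8% at 1 FPKM or more. Their FPKM summed to 209, beside 7396 for the 37 members. The 5 highest were MTATP6P1 at 72.1 FPKM (65.7 to 78.5), MTND3P25 at 27.4 (9.13 to 45.7), MTND2P28 at 16.9 (14.7 to 19.0), MTND3P23 at 5.15 (2.72 to 7.58) and MTCO1P12 at 3.31 (2.54 to 4.08). Only the first 3 of them passed 10 FPKM.

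MTATP6P1, MTND2P28 and MTCO1P12 belong to 1 block of 7 pseudogenes on chromosome 1 (chr1:629062-634922), which copies the stretch from MT-ND1 to MT-CO3. Within this block the copies were 97.6 to 98.7% identical to their members, yet their levels as a percent of the member's FPKM differed. MTATP6P1 reached 15.5% of MT-ATP6, MTND2P28 5.81% of MT-ND2 and MTCO1P12 0.670% of MT-CO1. The other 4 copies (MTND1P23, MTCO2P12, MTATP8P1 and MTCO3P12) reached 0.107 to 0.337%. MTATP6P1 differed from MT-ATP6 at 10 of 681 bases, counted from the first base of MT-ATP6. In the first 120 bases there is 1 difference, G19A, in capitals below.
MT-ATP6 (chrM:8527-8646, + strand): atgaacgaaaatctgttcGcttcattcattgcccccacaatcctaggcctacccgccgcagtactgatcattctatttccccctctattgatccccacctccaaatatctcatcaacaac
MTATP6P1 (chr1:633696-633815, + strand): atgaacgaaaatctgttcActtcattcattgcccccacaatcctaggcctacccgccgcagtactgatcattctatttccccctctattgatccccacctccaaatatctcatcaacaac
These are reference bases, and no read or base call of the K562 library was analysed here, so whether the fragments listed under MTATP6P1 came from either locus was not tested.

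The study also used MT-RNR1 in quantitative PCR, and its primers show which part of the gene that assay reads.
MT-RNR1 forward primer: atcaagcacgcagcaatgcag
MT-RNR1 reverse primer: aacactctttacgccggcttc
Each primer matched chrM once. They bound a product of 191 bp at chrM:757-947, bases 110 to 300 of the gene, in which 0% of the 100-base words occurred on a nuclear chromosome and the longest exact match was 70 bases. The product thus lay outside the 21.2% of 100-base MT-RNR1 words that have exact nuclear copies. Whether the primers also amplify nuclear copies was not tested.

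The nuclear genes that express the mitochondrial genome were all listed lower than the lowest mitochondrial mRNA gene. All 32 factors of a list of transcription, replication, processing and decay genes had an FPKM of at least 1, with a range of 4.17 to 114 FPKM and a median of 14.2 FPKM. Of these, 14 act in transcription and replication, with a median of 10.0 FPKM. SSBP1, which binds single-stranded mitochondrial DNA, was listed at 114 FPKM (106 to 122), TFAM, which packages the DNA and opens its promoters, at 42.3 FPKM (38.6 to 46.0), POLRMT, the RNA polymerase, at 12.2 FPKM (9.52 to 14.9), TFB2M, its partner in initiation, at 13.8 FPKM (12.5 to 15.2), and TEFM, an elongation factor, at 7.64 FPKM (5.59 to 9.70). The other 18 act in processing, stability and decay, with a median of 17.2 FPKM.

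Among these, LRPPRC and SLIRP, which form a complex that stabilises mitochondrial mRNAs, were listed at 69.1 FPKM (64.1 to 74.0) and 70.6 FPKM (62.0 to 79.2), and their bounds overlapped. The helicase SUPV3L1 at 42.5 FPKM (37.9 to 47.1) and its partner PNPT1, the nuclease of RNA decay, at 14.6 FPKM (12.5 to 16.7) did not overlap. ELAC2, which cuts the 3' end of tRNAs, was at 15.0 FPKM (12.4 to 17.5), and MTPAP, the polyA polymerase, at 7.55 FPKM (6.22 to 8.89). The nuclear genes for subunits of the same enzyme complexes had medians of 21.2 FPKM in complex I (39 genes), 29.0 in complex III (9 genes), 28.0 in complex IV (17 genes) and 47.2 in ATP synthase (19 genes). The medians of the mitochondrial genes of complexes I and IV and ATP synthase were 398, 494 and 542 FPKM, and MT-CYB was at 304 FPKM. These are levels per length of gene in 1 library of input RNA from a protocol that sonicates the nuclei of fixed cells, and RNA per mitochondrial genome was not measured.

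The count tables used here list EZH2 RIP-seq fragments, regions of RNA that the study called as bound by EZH2, and hold fewer fragments than the study describes. Of the 900 listed fragments with read counts in the cytoplasmic, nuclear, nuclear polyA+ and nuclear polyA- libraries, 0 lay on chrM. None overlapped any of the 405 nuclear entries named as copies of members. This covers the listed fragments only, and says nothing of mitochondrial reads in these libraries.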

How the data were processed

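For the input RNA, reads were trimmed with TrimGalore and mapped with STAR to GRCh38 with GENCODE 26, duplicates were discarded, as were alignments of mapping quality below 20, and the authors computed FPKM per gene with cuffdiff. The deposited FPKM values and their lower and upper bounds were used unchanged, with no pseudocount and no filter. The deposited read counts on 900 EZH2 fragments in 4 further libraries, made by the authors with featureCounts, were used only to locate fragments. With 1 library per sample no test was run, and depth is known only as implied by the bounds. Fragments of a gene were taken as the square of 2 FPKM over the distance from the FPKM to its upper bound, which covers counting error only. The totals over members used the line in gene length for the rRNA and mRNA genes. Words of 100 bases were matched exactly on both strands of 24 nuclear chromosomes of hg38, and the matching was tested on simulated data. Python 3.11.15, numpy 2.4.6, pandas 2.3.3, scipy 1.17.1 and Biopython 1.88 were used. The members, the lists of factors and markers, and the rule for nuclear copies (all counts and the 5 highest) were chosen with earlier results of these data known. The samples of other assays were not analysed here. A further marker gene is not reported here.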

Additional observations from a re-analysis of the deposited data

How the results depend on the processing

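Of 34 alternatives to 10 results, 11 moved the value and 1 reversed it. Another 7 returned the identical value and could not have changed it, since they removed or added no gene, and 15 changed it by less than the limits set. The median of the mRNA genes was 410 FPKM without MT-ATP8, MT-ATP6, MT-ND4L and MT-ND4, and, added after seeing the data, 357 FPKM without all 5 genes that share bases with a neighbour (MT-CO3 included), compared with 464 FPKM. The number of tRNA genes called was 4 at an FPKM of at least 1 and 4 at an FPKM above 0, compared with 2 by a lower bound above 0. With words of 50 bases, 1 gene (MT-CO1) had at least 50% of its words outside chrM, compared with 0 for words of 100 bases, so leaving out such genes left nothing out. Also added after seeing the data, leaving out the genes with any 100-base word outside chrM gave a mRNA median of 529 FPKM and a log2 ratio of MT-ND6 to the median heavy-strand gene of -0.93, compared with -0.67. It also reversed the rank correlation of level and place, from 0.41 over 12 genes to -0.37 over the 6 left, which lie mostly late in the order. That correlation was 0.595 without MT-ATP8, MT-ATP6, MT-ND4L and MT-ND4, and 0.607 without all 5 genes that share bases with a neighbour. These 2 values were also added after seeing the data. Dividing each FPKM by the share of words not found outside chrM gave 527 FPKM, -0.82 and, for MT-RNR1 against MT-RNR2, -0.75 compared with -1.09, and a rank correlation of 0.20. The cause was not tested. No paired analysis was possible because each RNA sample is 1 library and no result comes from a test. Depth limits the tRNA genes most, where 1 fragment was worth 78.0 FPKM in a gene of 69 bp.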
